A study of Mus musculus with 8 samples.

Results

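The genes that add methyl groups to lysines of histones, or take them off, were followed here in embryonic mouse hearts. Members were chosen by symbol, as the autosomal genes named Kdm, Kmt, Setd, Setdb, Suv39h, Ezh, Ehmt, Nsd1, Dot1l or Prdm, and 49 of the 13637 genes in the deposited table met the rule. Another 7 annotated matches (Kdm4d, Kdm4dl, Kdm6bos, Prdm8, Prdm12, Prdm13 and Prdm14) are not analysed here. The 49 comprised 12 demethylases with a JmjC domain, 2 demethylases of the LSD type (amine oxidases), 20 established histone methyltransferases, 5 relatives with a SET domain whose action on histones is doubtful or whose main substrate is another protein, and 10 Prdm genes. All 49 passed the filter on low values.

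The hearts came from mouse embryos at embryonic day 9.5. The 4 GOF samples have the genotype Bmp2GOF;Nkx2.5-Cre, in which a gain-of-function allele of the ligand gene Bmp2 meets a Cre that acts in cardiac progenitors and their descendants, and the 4 WT samples are wild type. The labels do not say whether a sample was 1 embryo or a pool, so the spread within a group may be technical. The p-values set the difference between the groups against that spread only. The labels name no strain, litter or sex, and whether WT embryos carried either allele alone is not given in the sources used here. All GOF samples carry both alleles, and no sample is labelled with either alone. Effects of the Bmp2 allele and of the Cre allele therefore cannot be told apart.

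Histone methylation marks states of chromatin. Methylation of H3K4 marks promoters and enhancers, that of H3K36 transcribed gene bodies, and that of H3K9 and H3K27 silent chromatin, while H4K20 methylation is tied to the cell cycle and compaction. Methyltransferases of the SET family, and Dot1l outside it, take the methyl group from S-adenosylmethionine. JmjC demethylases need molecular oxygen, iron and 2-oxoglutarate, and LSD enzymes use flavin and also consume oxygen. In cultured cells several JmjC genes, Kdm3a and Kdm4b among them, are known targets of the hypoxia-inducible factors. In mice, loss of several of these enzymes, Ezh2 and Kmt2d among them, causes heart defects.

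Summed over the genes in the table, reads numbered 13182009 to 17927674 in GOF and 12287069 to 16697480 in WT, with 31 to 6563 behind each member value. Bmp2 itself had 95.8, 102, 108 and 91.1 normalized reads in GOF samples 1 to 4, against 61.7, 59.6, 54.4 and 49.5 in WT samples 1 to 4 (log2 fold change 0.81 ± 0.069 SE, adjusted p = 2.91e-07), and the groups did not overlap. Whether reads of the transgene count towards Bmp2 is not given in the sources used here. Markers of cardiomyocytes, which identify the tissue, summed to 33511 to 39626 in GOF and 31297 to 35667 in WT, and all 8 were at or above 107 normalized reads in each sample. The groups differed widely. In limma with Benjamini-Hochberg adjustment, 56.3% of all genes passed an adjusted p of 0.05 (28.2% higher in GOF and 28.2% lower), and the values of GOF and WT did not overlap for 50.9%. Against this background a call on its own says little, and sizes and directions carry the comparison. GOF sample 1 stood apart from the other GOF samples on the second principal component, which held 7.98% of the variance, against 72.6% for the first, which separated GOF from WT.

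JmjC demethylases were mostly higher in GOF hearts, while histone methyltransferases were split. Of the 12 JmjC genes 10 rose and 1 fell, leaving 1 that did not pass, and their median log2 fold change was 0.74. Of the 20 histone methyltransferases 3 rose and 6 fell, leaving 11, and their median was -0.019. Over all 13637 genes, 3839 rose and 3840 fell, leaving 5958, and the median was -0.0020. The values of GOF and WT did not overlap for 20 members that were higher and 11 that were lower in GOF, against 25.6% and 25.3% of all genes. A rise of at least 1.5-fold that passed the threshold was seen for 6 of 12 JmjC genes and for 0 of 20 histone methyltransferases, against 9.19% of all genes. On the same log2(value + 1) scale, which understates the change of low genes, a fall of at least 1.5-fold was seen for 0 of the 49 members, against 4.23% of all genes. By the plain means Setdb2 (6.86 in GOF and 10.4 in WT) passed that size as a fall. The histone methyltransferase Ezh1 (27.4 in GOF and 17.9 in WT, a ratio of 1.53) passed it as a rise. At an unadjusted p under 0.05, 24.5% of the members and 30.3% of all genes were lower. JmjC log2 fold changes ran from -0.51 (Kdm8) to 1.55 (Kdm7a), and those of the histone methyltransferases from -0.55 (Setdb2) to 0.58 (Ezh1). In the same samples 29 of 30 hypoxia genes rose and 24 of 28 cell cycle genes fell, none of them a member, and the part of either in these changes was not tested. In bulk samples, fewer cells of a type and less RNA per cell cannot be told apart. The difference between the classes was not tested as such, since genes of a class are not replicates. With mitochondrial genes left out and columns set to equal totals, the median of all genes moved to -0.062 and 40.2% of all calls were higher, against the even split above with the deposited scaling. On that scale 8 JmjC genes rose and 1 fell (median 0.67), and 3 histone methyltransferases rose and 8 fell (median -0.084).

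**Figure D1:**
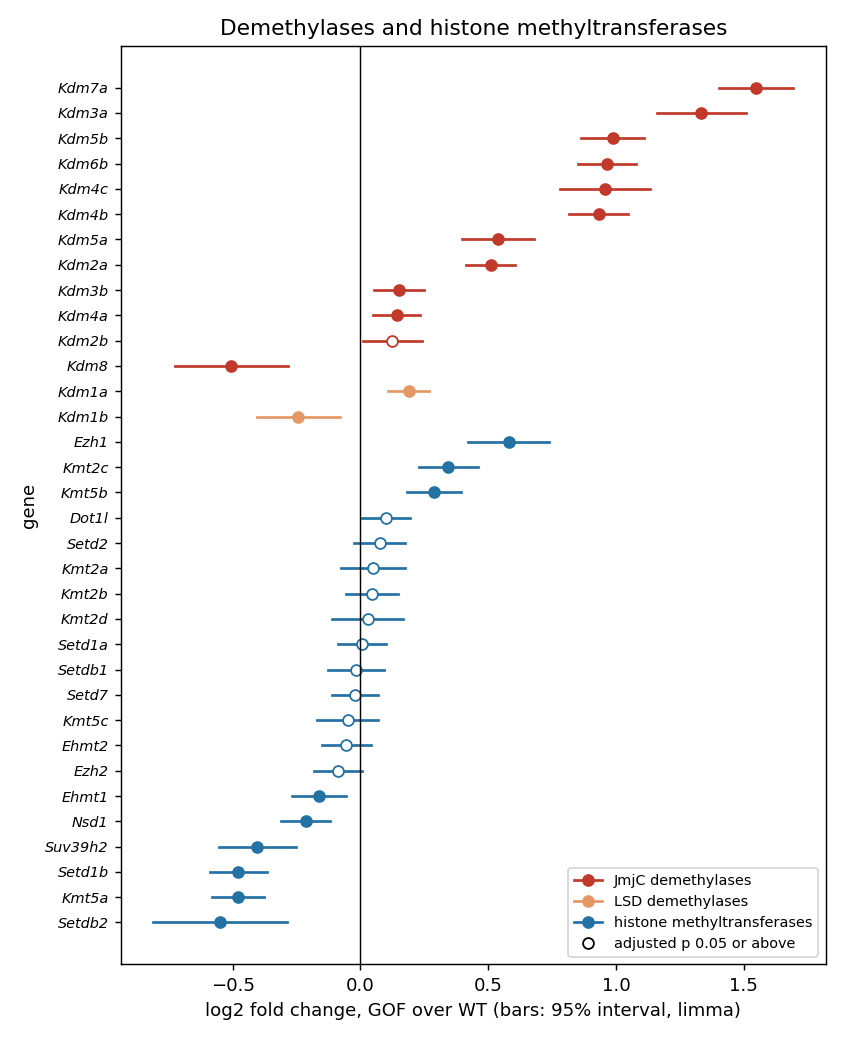
Log2 fold change, GOF over WT, of each JmjC demethylase, LSD demethylase and histone methyltransferase, with its 95% interval from limma; open circles did not pass an adjusted p of 0.05. JmjC genes run up to 1.55 with Kdm8 as the only one that fell (-0.51), and the histone methyltransferases lie between -0.55 and 0.58.

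**Figure D2:**
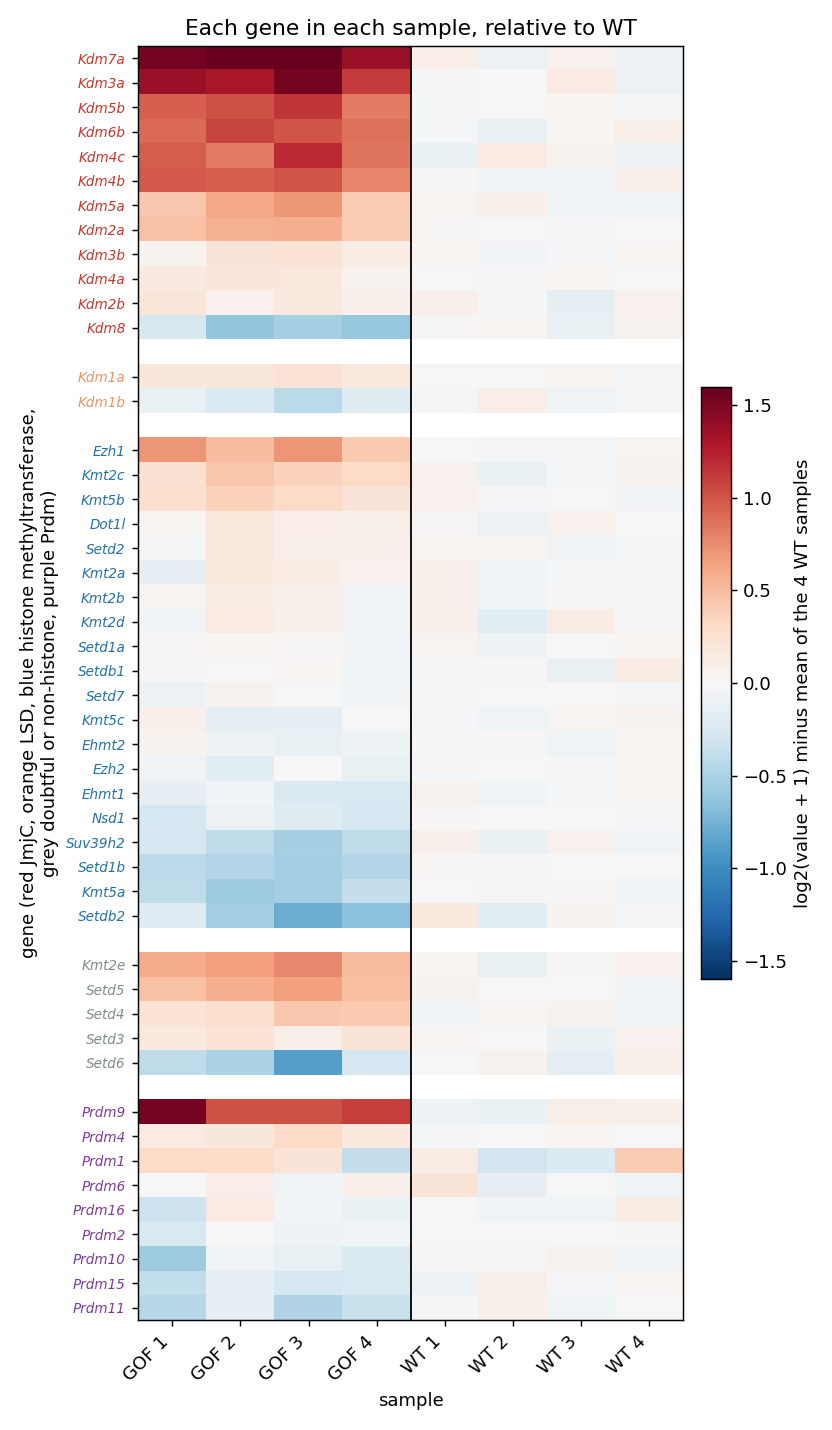
Log2(value + 1) of 48 members in each of the 8 samples, minus the mean of the 4 WT samples, with GOF samples on the left of the black line and gene names coloured by class. JmjC genes fill the upper rows in GOF, with Kdm7a and Kdm3a strongest, and Prdm9 is the other gene with a log2 fold change above 1 (1.17).

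Kdm7a, which removes methyl groups from dimethylated H3K9 and H3K27, changed most among the members. The gene lies on the minus strand of chromosome 6, from 39136623 to 39206789 (GRCm38). It had 84.8, 87.7, 96.1 and 76.6 normalized reads in GOF samples 1 to 4, against 31.0, 26.8, 30.1 and 27.2 in WT samples 1 to 4. Every GOF sample was more than 2-fold above every WT sample, and the log2 fold change was 1.55 ± 0.068 SE, adjusted p = 6.48e-11. Kdm3a, which demethylates mono- and dimethylated H3K9 and is needed for the activation of spermatid genes, had 211, 201, 234 and 176 normalized reads in GOF samples 1 to 4, against 78.9, 80.6, 87.9 and 75.2 in WT samples 1 to 4. The groups stood far apart, with GOF sample 4 the lowest of the GOF samples (log2 fold change 1.33 ± 0.078 SE, adjusted p = 7.67e-08). Its close relative Kdm3b, with the same substrate, had 102, 112, 113 and 106 normalized reads in GOF samples 1 to 4, against 99.6, 94.2, 95.4 and 100.2 in WT samples 1 to 4. All GOF samples were above all WT samples by a small margin, and the log2 fold change was 0.15 ± 0.046 SE, adjusted p = 0.0109. Gm26538, which is not in the table, overlaps 24.6% of the exon bases of Kdm3b on the other strand. With mitochondrial genes left out, the rise of Kdm3b was 0.086 and no longer passed (adjusted p = 0.108).

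Promoters of the JmjC genes were searched for ACGTG, a core of the element that hypoxia-inducible factors bind, on both strands. Windows of 300 bases, from 250 before to 50 after each start site, come from RefSeq (GRCm38.p6), and 37 of the 49 members had at least 1. The motif was present in 4 of 13 JmjC windows (30.8%), in 10 of 52 member windows (19.2%) and in 19.6% of all 32851 windows. The 13 JmjC windows belong to 7 genes, and counted by gene the motif was in at least 1 window of 4 of these 7 (57.1%), of 9 of the 37 members (24.3%) and of 21.8% of all 27025 genes. Kdm2a, Kdm3b, Kdm4b, Kdm5a and Kdm6b, which rose, had no window and could not be searched. The longer CACGTG, which contains ACGTG, was in 7.15% of all windows. GCGTG, the other common form of that core, was searched after the values were seen and was in 61.5% of JmjC windows, 61.9% of histone methyltransferase windows and 32.4% of all windows. The windows of the 3 JmjC genes with the largest rises and of the JmjC gene that fell are printed to show which of them hold the motif, 5′ to 3′ on the strand of the gene, with ACGTG in capitals.
The Kdm7a window is chr6:39206724-39207023 (minus strand), with the motif starting 139 bases before the start site.
Kdm7a promoter: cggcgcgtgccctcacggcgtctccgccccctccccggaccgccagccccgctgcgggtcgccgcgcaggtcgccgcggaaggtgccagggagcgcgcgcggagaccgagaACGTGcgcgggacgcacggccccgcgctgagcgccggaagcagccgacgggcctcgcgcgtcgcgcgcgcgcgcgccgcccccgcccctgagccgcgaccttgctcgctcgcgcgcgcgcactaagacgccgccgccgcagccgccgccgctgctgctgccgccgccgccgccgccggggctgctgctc
The Kdm3a window, 1 of its 3, is chr6:71632868-71633167 (minus strand), and these letters do not hold the motif.
Kdm3a promoter: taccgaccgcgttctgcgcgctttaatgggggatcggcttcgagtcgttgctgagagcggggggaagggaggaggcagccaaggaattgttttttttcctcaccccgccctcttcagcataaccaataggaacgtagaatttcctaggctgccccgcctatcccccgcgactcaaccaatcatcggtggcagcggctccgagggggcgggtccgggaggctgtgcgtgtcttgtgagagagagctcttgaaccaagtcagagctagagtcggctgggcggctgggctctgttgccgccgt
The Kdm5b window is chr1:134559928-134560227 (plus strand), with the motif starting 229 bases before the start site.
Kdm5b promoter: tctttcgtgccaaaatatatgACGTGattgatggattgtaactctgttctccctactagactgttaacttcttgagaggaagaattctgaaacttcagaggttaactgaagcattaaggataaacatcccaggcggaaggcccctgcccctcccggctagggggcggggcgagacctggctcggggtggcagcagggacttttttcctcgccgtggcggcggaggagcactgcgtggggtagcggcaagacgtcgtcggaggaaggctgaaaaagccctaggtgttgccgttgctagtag
The Kdm8 window is chr7:125444370-125444669 (plus strand), with the motif starting 182 bases before the start site.
Kdm8 promoter: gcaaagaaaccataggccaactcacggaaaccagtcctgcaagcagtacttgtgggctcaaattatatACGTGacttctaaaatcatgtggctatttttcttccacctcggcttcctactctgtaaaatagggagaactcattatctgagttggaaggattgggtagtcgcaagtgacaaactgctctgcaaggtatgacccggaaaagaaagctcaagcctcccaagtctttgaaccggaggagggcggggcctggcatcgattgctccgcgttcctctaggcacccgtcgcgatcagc
The JmjC genes with the motif were Kdm7a, Kdm5b and Kdm4c (in 1 of its 2 windows), which rose, and Kdm8, which fell. None of the 3 windows of Kdm3a, which rose, holds ACGTG. The other form, GCGTG, was in the printed windows of Kdm3a, Kdm7a and Kdm5b and not in that of Kdm8. A match in letters does not show binding.

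Among the Kdm4 enzymes, which act on trimethylated H3K9 and H3K36, Kdm4b and Kdm4c rose by similar amounts and Kdm4a by far less. Kdm4b had 120.0, 118, 122 and 104 normalized reads in GOF samples 1 to 4, against 60.8, 58.1, 58.6 and 63.6 in WT samples 1 to 4. GOF samples were at least 1.5-fold above WT throughout, with GOF sample 4 the lowest of them (log2 fold change 0.93 ± 0.054 SE, adjusted p = 1.34e-09). Kdm4c had 44.0, 39.6, 51.4 and 40.6 normalized reads in GOF samples 1 to 4, against 20.3, 24.3, 22.9 and 20.7 in WT samples 1 to 4. The groups again did not overlap (log2 fold change 0.96 ± 0.082 SE, adjusted p = 1.58e-07). Kdm4a, required in the mouse heart for the full response to pressure overload, had 91.5, 95.02, 92.6 and 86.0 normalized reads in GOF samples 1 to 4, against 83.2, 80.8, 84.4 and 82.0 in WT samples 1 to 4. All GOF samples were above all WT samples, but the log2 fold change was 0.14 ± 0.044 SE, adjusted p = 0.0119. That call ended with mitochondrial genes left out, where the value was 0.077 (adjusted p = 0.147). Together with Kdm3a and Kdm3b, these 3 genes make 5 demethylases whose main substrate is H3K9. Of these, 5 of 5 rose, with a median of 0.93, where 28.2% of all genes rose. On the scale without mitochondrial genes, 3 of the 5 rose.

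Kdm6b and Kdm5b doubled or nearly so. Kdm6b, which removes the H3K27 mark that Polycomb complexes write, had 195, 221, 210.2 and 192 normalized reads in GOF samples 1 to 4, against 102, 96.8, 106 and 111 in WT samples 1 to 4. GOF samples held close to 2-fold the WT level (log2 fold change 0.97 ± 0.054 SE, adjusted p = 7.59e-10). The antisense gene Kdm6bos covers 4.11% of the exon bases of Kdm6b and is not in the table. Kdm5b, an H3K4 demethylase and transcriptional repressor, had 248, 259.7, 283 and 225 normalized reads in GOF samples 1 to 4, against 126, 128, 130.1 and 124 in WT samples 1 to 4. WT samples lay within a narrow range, and each GOF sample was well above them (log2 fold change 0.99 ± 0.057 SE, adjusted p = 1.85e-09). Kdm5a, its relative that binds the retinoblastoma protein, had 118, 134, 142 and 115 normalized reads in GOF samples 1 to 4, against 90.1, 92.3, 82.8 and 83.6 in WT samples 1 to 4. The groups did not overlap, and the rise was smaller (log2 fold change 0.54 ± 0.065 SE, adjusted p = 8.56e-06).

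Kdm2a and Kdm2b demethylate H3K36 and bind CpG islands, where Kdm2b also brings in a Polycomb complex. Kdm2a had 192, 206, 207 and 183 normalized reads in GOF samples 1 to 4, against 139.7, 138, 135 and 138 in WT samples 1 to 4. All GOF samples were higher (log2 fold change 0.51 ± 0.045 SE, adjusted p = 1.67e-07). For Kdm2b the log2 fold change was 0.13 (95% interval 0.0090 to 0.24, adjusted p = 0.0627), the groups overlapped, and it passed once WT sample 1 was left out (0.15, adjusted p = 0.0416), and likewise WT sample 4 (0.15, adjusted p = 0.0492). Kdm8, a JmjC oxygenase whose demethylase activity is disputed, was the lone JmjC gene to fall. It had 7.71, 5.77, 6.20 and 5.88 normalized reads in GOF samples 1 to 4, against 9.61, 9.69, 8.60 and 9.88 in WT samples 1 to 4. The groups did not overlap (log2 fold change -0.51 ± 0.10 SE, adjusted p = 0.000691), and GOF sample 1 was the nearest to WT.

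The LSD demethylases moved in opposite directions and by little. Kdm1a, the H3K4 demethylase of the CoREST repressor complex, had 168, 169, 174 and 165 normalized reads in GOF samples 1 to 4, against 149, 147, 151 and 146 in WT samples 1 to 4. GOF samples were all above WT (log2 fold change 0.19 ± 0.038 SE, adjusted p = 0.00059). Kdm1b, known for setting maternal imprints in oocytes, had 20.8, 19.5, 16.6 and 19.8 normalized reads in GOF samples 1 to 4, against 22.3, 24.6, 21.9 and 22.4 in WT samples 1 to 4. GOF samples were all below WT (log2 fold change -0.24 ± 0.076 SE, adjusted p = 0.0128), and Dek shares 9.19% of its exon bases on the other strand. Counting both LSD genes with the JmjC genes gave 11 of 14 higher and 2 lower, with a median of 0.52. Of the genes the autosomal rule left out, the X-linked demethylases Kdm5c (log2 fold change 0.35 ± 0.049 SE, adjusted p = 2.32e-05) and Kdm6a (0.44 ± 0.083 SE, adjusted p = 0.000641) also rose, and Suv39h1 and Kdm5d did not pass. The labels name no sex, and Y-linked Kdm5d varied from 12.1 normalized reads in GOF sample 3 to 27.4 in WT sample 3. The part of sex in the X-linked rises was not tested.

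**Figure D3:**
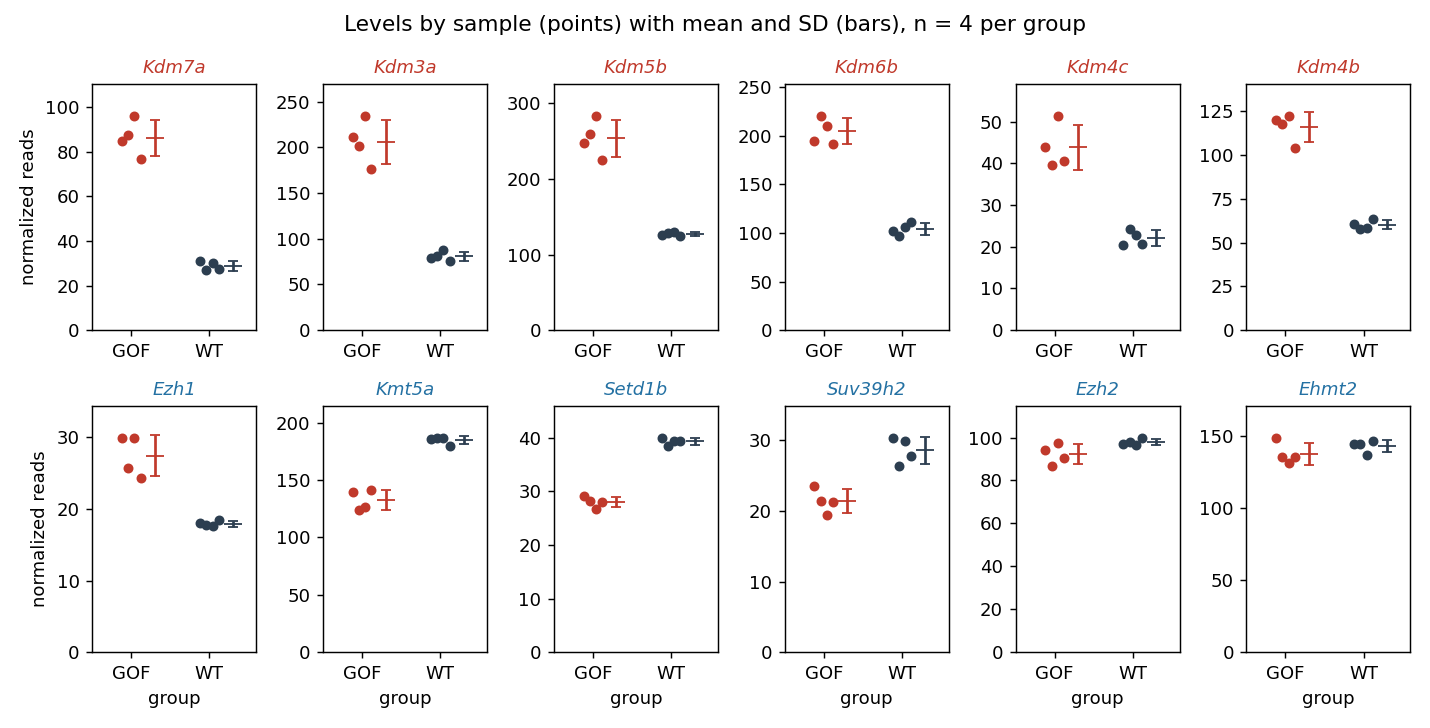
Normalized reads in each sample (points) of the 6 JmjC genes with the largest rises (top, red titles) and of 6 histone methyltransferases (bottom, blue titles), with the mean and SD of 4 samples per group; each axis starts at 0. GOF lies above WT in all of the upper panels and for Ezh1, below WT for Kmt5a, Setd1b and Suv39h2, and the groups overlap for Ezh2 and Ehmt2.

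Histone methyltransferases showed smaller changes, in both directions. On H3K27, the catalytic subunit Ezh1 of the Polycomb complex PRC2 had 29.9, 25.7, 29.8 and 24.2 normalized reads in GOF samples 1 to 4, against 18.01, 17.7, 17.6 and 18.5 in WT samples 1 to 4. Each GOF sample was above each WT sample (log2 fold change 0.58 ± 0.074 SE, adjusted p = 8.44e-06). Ezh2, the subunit of dividing cells, did not pass (log2 fold change -0.086, 95% interval -0.18 to 0.0082, adjusted p = 0.111). It passed as lower without GOF sample 3 (-0.11, adjusted p = 0.0488) and with mitochondrial genes left out (-0.15, adjusted p = 0.00974). The opposing demethylase Kdm6b had a log2 fold change of 0.97.

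On H3K9, 0 of 5 methyltransferases rose and 3 fell in limma, with a median of -0.16, and 0 were higher at an unadjusted p under 0.05. Over all genes 28.2% rose and 28.2% fell, so with 5 genes these counts say little. Suv39h2, which trimethylates H3K9 in pericentric heterochromatin, had 23.5, 21.3, 19.4 and 21.3 normalized reads in GOF samples 1 to 4, against 30.3, 26.3, 29.9 and 27.7 in WT samples 1 to 4. GOF samples were all lower (log2 fold change -0.40 ± 0.071 SE, adjusted p = 0.000176), and Dclre1c overlaps 8.10% of its exon bases on the other strand. Setdb2 had 8.86, 6.79, 5.58 and 6.22 normalized reads in GOF samples 1 to 4, against 11.7, 9.001, 10.9 and 10.1 in WT samples 1 to 4. The groups came close, with GOF sample 1 just under WT sample 2, and the log2 fold change was -0.55 ± 0.12 SE, adjusted p = 0.0014. Ehmt1, the partner of G9a, fell by 0.16 on the log2 scale (adjusted p = 0.0126) with overlapping groups, while G9a itself (Ehmt2, -0.055, adjusted p = 0.331) and Setdb1 (-0.017, adjusted p = 0.795) did not pass. Ehmt2 passed as lower with mitochondrial genes left out (-0.12, adjusted p = 0.0438).

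On H3K4, 1 of 7 methyltransferases rose and 1 fell. Kmt2c, which monomethylates H3K4 at enhancers, had 82.9, 95.6, 90.9 and 87.2 normalized reads in GOF samples 1 to 4, against 73.4, 64.7, 69.1 and 73.0 in WT samples 1 to 4. All GOF samples were higher (log2 fold change 0.34 ± 0.054 SE, adjusted p = 6.67e-05). Setd1b, the catalytic subunit of a COMPASS complex, had 29.1, 28.2, 26.7 and 28.1 normalized reads in GOF samples 1 to 4, against 40.0, 38.5, 39.5 and 39.5 in WT samples 1 to 4. Within each group the values were tight, and GOF was lower throughout (log2 fold change -0.48 ± 0.052 SE, adjusted p = 1.66e-06). The other H3K4 enzymes were Kmt2a (0.050), Kmt2b (0.047), Kmt2d (0.029), Setd1a (0.0066) and Setd7 (-0.021), none past the threshold with all samples, and at an unadjusted p under 0.05 there were still 1 higher and 1 lower of the 7. Kmt2d, mutated in Kabuki syndrome, which includes heart defects, had a 95% interval of -0.11 to 0.17. Gm49388 shares 51.8% of the exon bases of Setd1a on the same strand, so its counts may be split.

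On H4K20, H3K36 and H3K79 the largest change was in Kmt5a, which monomethylates H4K20 around mitosis. Kmt5a had 139, 124, 126 and 141 normalized reads in GOF samples 1 to 4, against 186, 187, 186 and 179.7 in WT samples 1 to 4. GOF was lower in every sample (log2 fold change -0.48 ± 0.048 SE, adjusted p = 6.13e-07). The enzymes of the later H4K20 methylation steps went separately, Kmt5b rising (0.29 ± 0.049 SE, adjusted p = 0.000143) and Kmt5c not passing (-0.049, 95% interval -0.17 to 0.070). Nsd1, an H3K36 dimethyltransferase, fell (-0.21 ± 0.045 SE, adjusted p = 0.000863). Setd2, which adds the last methyl group of H3K36 (0.077, adjusted p = 0.18), and Dot1l, the H3K79 enzyme (0.10, adjusted p = 0.0686), did not pass. Without GOF sample 1, Setd2 (0.11, adjusted p = 0.0414), Dot1l (0.12, adjusted p = 0.0336) and Kmt2a (0.11, adjusted p = 0.0495) passed as higher, which brings the methyltransferases that rose to 6, against 3 with all samples. Dot1l also passed without WT sample 3 (0.12, adjusted p = 0.0491).

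Of the 5 SET relatives with doubtful or other substrates, 4 rose and 1 fell, with a median of 0.33, where 28.2% of all genes rose. Kmt2e, which reads H3K4 methylation, had 139, 145, 157 and 131 normalized reads in GOF samples 1 to 4, against 93.4, 84.8, 93.0 and 96.3 in WT samples 1 to 4. GOF samples were all higher (log2 fold change 0.63 ± 0.056 SE, adjusted p = 1.80e-07), and Srpk2 overlaps 9.31% of its exon bases on the other strand. Setd5 had 346, 373, 394 and 349 normalized reads in GOF samples 1 to 4, against 260.3, 249, 249.5 and 239 in WT samples 1 to 4. GOF was higher throughout (log2 fold change 0.55 ± 0.048 SE, adjusted p = 1.57e-07). Setd6, which methylates the NF-kappaB subunit RelA, had 10.6, 9.74, 7.28 and 11.7 normalized reads in GOF samples 1 to 4, against 14.3, 14.9, 12.9 and 15.2 in WT samples 1 to 4. GOF was lower in every sample (log2 fold change -0.52 ± 0.11 SE, adjusted p = 0.00133). Setd4 had 6.08, 6.28, 7.20 and 7.19 normalized reads in GOF samples 1 to 4, against 4.94, 5.24, 5.37 and 4.88 in WT samples 1 to 4. Its values were low and the groups did not overlap (log2 fold change 0.33 ± 0.10 SE, adjusted p = 0.0124), but it did not pass after quantile normalization (0.22, adjusted p = 0.0932). Setd3, the actin histidine methyltransferase, rose (0.17 ± 0.048 SE, adjusted p = 0.00672) and did not pass with mitochondrial genes left out (0.11, adjusted p = 0.0728).

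The Prdm genes encode zinc finger regulators with a SET-like domain, and few of them have a known histone activity. Of 10 measured, 2 rose and 2 fell, leaving 6, and the median was -0.032. With mitochondrial genes left out 2 rose and 4 fell (median -0.095), after quantile normalization 2 rose and 3 fell (median -0.073), and without GOF sample 1 the median was 0.014. Prdm9, which trimethylates H3K4 at sites of meiotic recombination in germ cells, had 8.59, 5.77, 5.74 and 6.15 normalized reads in GOF samples 1 to 4, against 2.16, 2.10, 2.54 and 2.53 in WT samples 1 to 4. GOF samples were all higher, GOF sample 1 most (log2 fold change 1.17 ± 0.13 SE, adjusted p = 2.50e-06). Its values rested on 74 to 126 reads per GOF sample and 31 to 36 per WT sample. Prdm11 had 21.9, 27.5, 21.7 and 23.7 normalized reads in GOF samples 1 to 4, against 30.0, 32.5, 29.2 and 30.6 in WT samples 1 to 4, and GOF was lower (log2 fold change -0.36 ± 0.074 SE, adjusted p = 0.000711). Prdm4 had 52.5, 54.3, 59.2 and 53.3 normalized reads in GOF samples 1 to 4, against 47.2, 47.4, 48.7 and 47.5 in WT samples 1 to 4, and GOF was higher (log2 fold change 0.20 ± 0.050 SE, adjusted p = 0.00352). Prdm15, which supports signalling programmes in early embryos, had 15.0, 17.9, 16.3 and 16.7 normalized reads in GOF samples 1 to 4, against 18.7, 21.5, 19.5 and 20.5 in WT samples 1 to 4, and GOF was lower (log2 fold change -0.27 ± 0.074 SE, adjusted p = 0.00575). Prdm10 did not pass (-0.24, adjusted p = 0.0765) although its groups did not overlap, and passed as lower without GOF sample 2 (-0.30, adjusted p = 0.0409), with mitochondrial genes left out (-0.30, adjusted p = 0.0266) and after quantile normalization (-0.32, adjusted p = 0.0299). Prdm16, needed for compact myocardium in mice, had a log2 fold change of -0.089 (95% interval -0.29 to 0.11). Prdm1, Prdm2 and Prdm6 did not pass, with log2 fold changes between -0.095 and 0.11, though Prdm2 passed as lower with mitochondrial genes left out (-0.16, adjusted p = 0.011).

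Levels per kilobase of exon show how the balance of transcripts changed. Lengths are of all annotated exons merged and not of the transcripts present, so any order of genes by level depends on the annotation. Summed over the 12 JmjC genes, normalized reads per kilobase were 164, 168, 177 and 151 in GOF samples 1 to 4, against 99.0, 97.1, 98.5 and 99.3 in WT samples 1 to 4. The lowest GOF sum was above the highest WT sum, and the means were 165 ± 11.1 in GOF and 98.5 ± 0.992 in WT (SD, n = 4 each), a ratio of 1.68. For the 20 histone methyltransferases the sums were 214, 214, 210.1 and 209 in GOF samples 1 to 4, against 229.9, 221, 225 and 227 in WT samples 1 to 4, and the ratio of the means was 0.938. Among single genes, Kdm1a was highest per kilobase in GOF, with 32.6 ± 0.715 in GOF and 28.6 ± 0.473 in WT. Kmt5a, highest in WT, had 25.0 ± 1.67 in GOF and 34.8 ± 0.623 in WT. The level of Kdm6b was 29.4 ± 1.92 in GOF and 15.0 ± 0.885 in WT, that of Kdm3a 25.0 ± 2.93 in GOF and 9.81 ± 0.652 in WT. In GOF, the means of Kmt5a, Kdm3a and Ehmt2 (25.1 ± 1.37) did not differ beyond their spread, while in WT they were well separated. Near the lower end were Prdm1, 0.631 ± 0.164 in GOF and 0.573 ± 0.172 in WT, and Prdm9, 1.52 ± 0.317 in GOF and 0.542 ± 0.0550 in WT.

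The log2 ratio between 2 paralogues was taken within each sample for 13 pairs and compared between GOF and WT with an exact two-sided permutation test, whose smallest possible p is 0.0286. For 10 of 13 pairs the groups did not overlap, each with an exact permutation p of 0.0286, or 0.0371 after Benjamini-Hochberg adjustment over the pairs. Single genes did not overlap in 50.9% of cases, and the share among other pairs of genes was not computed, so the count of pairs has no background of its own. Kdm3a over Kdm3b was 0.91 ± 0.16 in GOF and -0.27 ± 0.13 in WT (SD, n = 4 each). Kdm4b over Kdm4a was 0.34 ± 0.062 in GOF and -0.45 ± 0.065 in WT (SD, n = 4 each). Per kilobase, Kdm4b was above Kdm4a in GOF (23.7 and 15.8) and below it in WT (12.3 and 14.3), while Kdm3a was above Kdm3b in both groups. The ratio of Ezh1 over Ezh2 was -1.72 ± 0.10 in GOF and -2.39 ± 0.019 in WT (SD, n = 4 each), and Ezh1 stayed the lower of the pair per kilobase. The other differences, GOF minus WT, were 0.82 for Kdm4c over Kdm4a, 0.45 for Kdm5b over Kdm5a, 0.43 for Kdm1a over Kdm1b, -0.39 for Kdm2b over Kdm2a, -0.48 for Setd1b over Setd1a, -0.31 for Kmt2d over Kmt2c and -0.34 for Kmt5c over Kmt5b. These ratios compare changes and not levels, since the genes differ in length. Kmt5c over Kmt5b no longer passed without WT sample 3 or WT sample 4 (-0.32 and -0.30, adjusted p = 0.101 in both).

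Of the remaining pairs, Kmt2b over Kmt2a differed by -0.0034 (95% interval -0.16 to 0.15; exact permutation p = 0.971) and Ehmt1 over Ehmt2 by -0.11 (-0.24 to 0.027; exact permutation p = 0.0857). Setdb2 over Setdb1 differed by -0.53 and did not pass (exact permutation p = 0.0571, adjusted p = 0.0675). Without GOF sample 1 it did, at -0.65 (adjusted p = 0.0338).

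**Figure D4:**
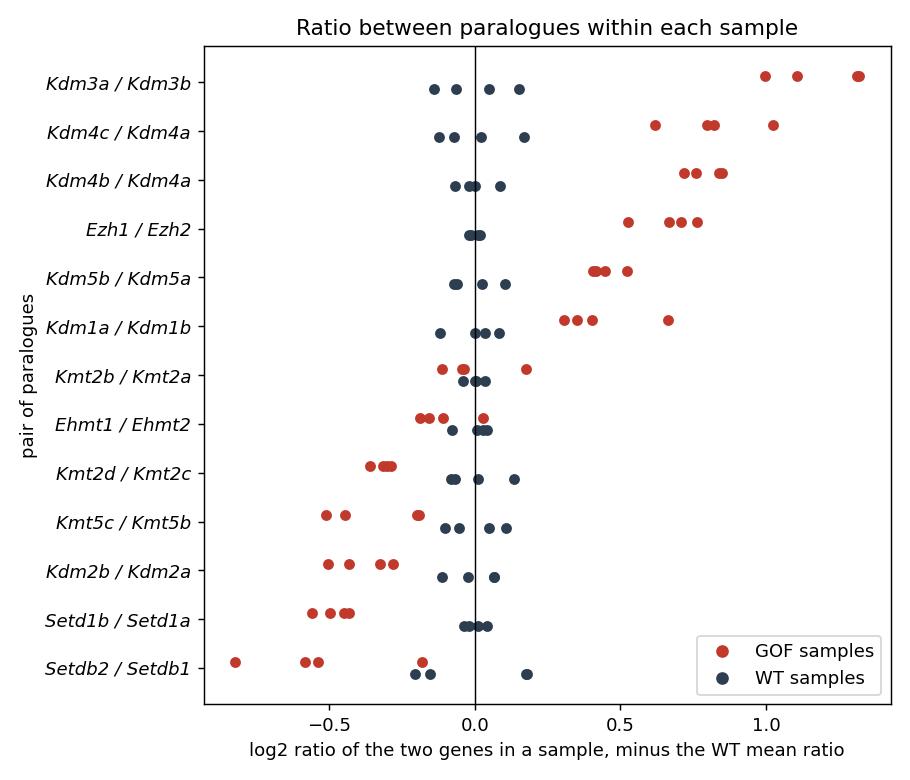
Log2 ratio between 2 paralogues in each sample, minus the mean WT ratio of that pair, with GOF samples in red drawn above WT samples in dark blue. GOF and WT do not overlap for 10 of 13 pairs, and Kdm3a over Kdm3b shows the largest shift, 1.18.

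Partners of these enzymes were taken from lists chosen by role. No list was tested as such, and of all genes 28.2% were higher and 28.2% lower. Of 11 partners of the H3K4 complexes (COMPASS), 9 fell and 1, Ncoa6, rose (0.16), with a median of -0.16. Over the samples left out, 7 to 9 of these partners fell. With mitochondrial genes left out the rise of Ncoa6 no longer passed (0.10, adjusted p = 0.0699), and the median was -0.22. They include the shared subunit Dpy30 (-0.28 ± 0.051 SE, adjusted p = 0.000231), Wdr82 of the Setd1 complexes (-0.31 ± 0.039 SE, adjusted p = 6.69e-06) and Paxip1 of the Kmt2c and Kmt2d complexes (-0.46 ± 0.051 SE, adjusted p = 1.88e-06). Of 9 PRC2 partners, 4 rose and 1 fell. Jarid2, a JmjC protein without demethylase activity that guides PRC2 and is needed for heart development, rose (0.80 ± 0.042 SE, adjusted p = 4.52e-10), as did the core subunit Suz12 (0.21 ± 0.039 SE, adjusted p = 0.000325), Epop (0.49) and Aebp2 (0.16), while the histone chaperone Rbbp4 fell (-0.29 ± 0.040 SE, adjusted p = 2.18e-05). The rise of Aebp2, whose groups overlapped, no longer passed with mitochondrial genes left out (0.092, adjusted p = 0.125), without GOF sample 2 (0.12, adjusted p = 0.0631) or without GOF sample 3 (0.14, adjusted p = 0.0545). Of 11 readers of H3K9 methylation and DNA methylation factors, 9 fell and 1, Uhrf2, rose (0.33), with a median of -0.19. Among them were Uhrf1, which couples both marks at replication (-0.57 ± 0.047 SE, adjusted p = 7.73e-08), the maintenance methyltransferase Dnmt1 (-0.37 ± 0.042 SE, adjusted p = 2.40e-06) and the Setdb1 partner Atf7ip (-0.85 ± 0.074 SE, adjusted p = 8.66e-07). Ncoa6, Epop, Aebp2 and Uhrf2 were named after their values were seen.

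Other oxygenases that use 2-oxoglutarate did not move as a block. The shares over all genes were again 28.2% higher and 28.2% lower. Of 20, 9 rose and 5 fell, with a median of 0.013, which was -0.039 after quantile normalization, -0.047 with mitochondrial genes left out and -0.0086 without GOF sample 1. The HIF prolyl hydroxylases Egln1 (1.83 ± 0.051 SE, adjusted p = 4.53e-13) and Egln3 (3.55 ± 0.086 SE, adjusted p = 1.95e-12), which are also in the hypoxia list, and the lysyl hydroxylase Jmjd6 (1.02 ± 0.043 SE, adjusted p = 3.67e-11) rose. Those that fell were Jmjd4, Egln2, Riox2, Jmjd8 and Hif1an, named after their values were seen, with log2 fold changes from -0.44 to -0.11. Hif1an no longer passed without GOF sample 1, 3 or 4 or without WT sample 1, 3 or 4. Nor did it pass with the replicate block or with no trend or robust prior. Over the samples left out 4 or 5 of the list fell, and 7 did with mitochondrial genes left out. Of 10 other SET enzymes, 0 rose and 5 fell in limma (0 and 5 at an unadjusted p under 0.05), with a median of -0.19, and 1 rose without GOF sample 1. Nsd2, an H3K36 dimethyltransferase (-0.29 ± 0.038 SE, adjusted p = 1.26e-05), Smyd1, a muscle protein needed for heart development (-0.35 ± 0.052 SE, adjusted p = 3.96e-05), and Smyd5 (-0.31 ± 0.050 SE, adjusted p = 8.36e-05) were the clearest of the 5, which also held Smyd2 (-0.15) and Setmar (-0.31). Setmar no longer passed without GOF sample 1, 3 or 4 or without WT sample 1 or 2. The number that fell was 4 to 6 over the samples left out. It was 6 with mitochondrial genes left out and after quantile normalization.

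**Figure D5:**
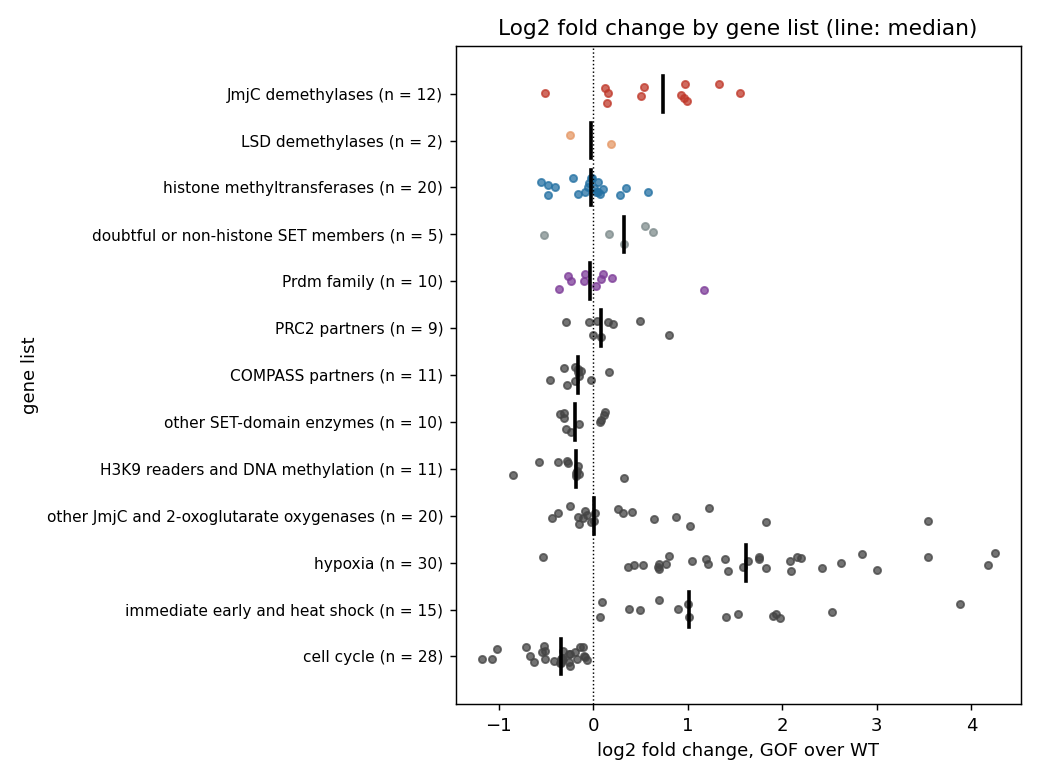
Log2 fold change, GOF over WT, of each gene (points) in the member classes, partner lists and state lists, with the median of each as a line. The hypoxia list lies highest (median 1.61), the JmjC genes sit above the other member classes, and the cell cycle list lies below 0 (median -0.34).

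Several features of the samples moved with the same contrast, and their part in the results was not tested. Of 30 genes of the response to hypoxia, 29 rose and 1, Pfkfb4, fell (-0.53, named after its value was seen), and their summed normalized reads were 27835 to 30354 in GOF and 14671 to 15890 in WT. Among the 10 JmjC genes that rose, GOF sample 3 was the highest GOF sample for 8 and GOF sample 4 the lowest for 8. In the hypoxia list GOF sample 3 was the highest for 21 of 30, and the lowest was GOF sample 1 for 13 and GOF sample 4 for 12. Such an order was not confined to these lists. Bmp2 was also highest in GOF sample 3 (108) and lowest in GOF sample 4 (91.1). On the first principal component GOF sample 3 lay furthest from WT (-32.1) and GOF sample 4 nearest (-26.2). The share of all genes with this order is not given here. Of 15 immediate early and heat shock genes, which respond to handling and stress, 13 rose and 0 fell (13 and 0 at an unadjusted p under 0.05), with sums of 833.1 to 892.3 in GOF and 522.8 to 566.2 in WT. Of 28 cell cycle genes, 0 rose and 24 fell in limma (0 and 26 at an unadjusted p under 0.05), with sums of 4200 to 4300 in GOF and 5506 to 5782 in WT. Kmt5a, Suv39h2, Uhrf1 and Dnmt1, which are known to be higher in cycling cells, fell beside them. Ezh2, the subunit of dividing cells, did not pass (-0.086, adjusted p = 0.111), nor did Suv39h1 (-0.090, adjusted p = 0.105).

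Markers of cell types differed too. Of 8 cardiomyocyte markers, 3 rose and 1, Myh6, fell by 0.16 on the log2 scale (adjusted p = 0.0487) with overlapping groups. Myh6 did not pass without GOF sample 1, 3 or 4, without WT sample 1, 3 or 4, with the replicate block, with a pseudocount of 5 or with no trend or robust prior, and was at 0.13 after quantile normalization (adjusted p = 0.0896). With mitochondrial genes left out 2 markers fell, and the median was -0.014. Of 9 endocardial and endothelial markers, 6 fell and 1 rose, with sums of 755.1 to 901.2 in GOF and 999.7 to 1069.7 in WT. Epicardial markers rose in 4 of 5, with sums of 686.6 to 864.3 in GOF and 217.5 to 242.2 in WT, and in GOF most of the sum came from Krt19 (499.6, 561, 643 and 586 normalized reads in GOF samples 1 to 4, against 77.3, 62.9, 75.02 and 69.8 in WT samples 1 to 4). The count was 3 with mitochondrial genes left out and when any sample other than GOF sample 1 was left out, and 5 with the replicate block. Erythroid markers passed in 0 of 7 in limma (0 at an unadjusted p under 0.05) and summed to 2611 to 14563 in GOF and 2547 to 7221 in WT, highest in GOF sample 1. Of 6 markers of white blood cells and platelets, 1 rose and 2 fell (3 and 2 at an unadjusted p under 0.05), with sums of 35.9 to 162.3 in GOF and 34.7 to 40.9 in WT. GOF sample 1 alone gave the highest of these sums, and the other GOF samples were at 35.9 to 69.9. The platelet genes Pf4 and Ppbp passed as higher without GOF sample 2 (2.01, adjusted p = 0.0105 and 1.94, adjusted p = 0.0324), and Ppbp without GOF sample 1 (1.06, adjusted p = 0.00768), so 3 and 2 of the 6 then rose. Neural tube markers had sums of 18.1 to 20.9 in GOF and 17.4 to 23.2 in WT, with 1 of 4 lower, and foregut endoderm markers 21.1 to 41.5 in GOF and 9.8 to 22.1 in WT, with 2 of 5 higher, Sox17 and Hhex, both of which endothelium also expresses. Of the defining endoderm markers, Shh had 0 reads in 1 GOF and 2 WT samples and Cdh1 in 1 WT sample, and no other listed marker was at 0 in any sample. Shh was listed at 5.13, 0.0284, 5.66 and 3.40 normalized reads in GOF samples 1 to 4, against 0.503, 0.0314, 0.0404 and 1.21 in WT samples 1 to 4. It did not pass (1.42, adjusted p = 0.113), but did as higher without GOF sample 2 (2.04, adjusted p = 3.62e-05), which was at 0 reads.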

How the data were processed

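RNA-seq of polyA RNA gave 4 GOF and 4 WT heart samples. The values that the authors deposited for 13637 Ensembl genes are a signal without negatives, read counts after a normalization. Per the submitters' processing notes, RSEM 1.2.3, cutadapt 1.6, CASAVA 1.8.2, FastQC and the GRCm38 build are named, with no order of steps. How values were scaled, which annotation release was counted and whether counting used strand is not given in the sources used here, so reads of overlapping antisense genes cannot be told apart. Values correspond to whole reads, with 0.5 added, over 1 scale per library (100% of values within 0.01). This could not be checked separately for 3 columns with few low values, so no count model was run, although the planned design allowed one.

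After a log2 transform with a pseudocount of 1, limma 3.58.1 was run in R 4.3.3 (lmFit, eBayes with trend and robust prior, no covariate), two-sided, with Benjamini-Hochberg adjustment over all genes and a threshold of 0.05. Fold changes are on that log2 scale, which understates the change of low genes. A filter of at least 1 in at least 4 samples removed 0 genes. The code was tested on simulated data. Names came from GENCODE M21 (13554 IDs matched), as did merged exon lengths for values per kilobase. Python 3.11.15 and scipy 1.17.1 were used for paralogue ratios.

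The values of 1 Prdm gene that did not pass are not reported here. The members and lists were chosen with earlier results of these data known. Values by sample are given for each demethylase past the threshold, the 10 genes of the methyltransferase families, Prdm left out, past it with the largest changes, and the 4 Prdm genes past it with the smallest p, and up to 3 partners per list with the smallest p are named. Alternatives covered the pseudocount, the filter, the scaling, the prior, a replicate block, each sample left out and the make-up of the classes.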

Additional observations from a re-analysis of the deposited data

Results flagged for a closer look

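For 3 of 100 groups of 4 samples checked, 1 per member and group plus Bmp2, a single sample lay apart from the other 3, with a gap to the nearest of them, as a share of the whole range, above Dixon's 95% critical value. Chance flags about 5% of groups. Prdm9 in GOF had sample 1 at 8.59 normalized reads, against 5.74 to 6.15 in the other 3 (gap 0.854 of the range). Kmt5a in WT had sample 4 at 179.7 normalized reads, against 186 to 187 (0.856). Kdm1b in WT had sample 2 at 24.6, against 21.9 to 22.4 (0.834). Without those samples, in each case, the gene kept its direction and stayed past the threshold.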

How the results depend on the processing

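The threshold was passed by 31 of 49 members, against 56.3% of all genes. Of the 31 members, 27 kept it and their direction under each of 16 alternatives, and 31 did whichever sample was left out. The exceptions, Kdm3b, Kdm4a, Setd3 and Setd4, changed with the scaling only. How many of all genes kept their call is not given here. The number of members called was 31 to 34 over the samples left out. The median of the histone methyltransferases was -0.051 after quantile normalization and -0.084 with mitochondrial genes left out, and their number called higher was 3 to 6 over the samples left out and 9 with all family members counted. With LSD genes counted among the JmjC genes, 2 were called lower and the median was 0.52. Quantile normalization reversed the sign of Setd1a (-0.015) and Prdm1 (-0.033), and leaving out mitochondrial genes that of Kmt2a (-0.015), Kmt2b (-0.018), Kmt2d (-0.036), Setd1a (-0.058) and Prdm6 (-0.038), none of which passed the threshold. Signs also changed over the samples left out for Setd7 (-0.047 to 0.0025), Kmt2d (-0.031 to 0.068), Setd1a (-0.019 to 0.023), Setdb1 (-0.058 to 0.022), Prdm6 (-0.020 to 0.10) and the ratio of Kmt2b to Kmt2a (-0.063 to 0.033). The cause was not tested.

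Replicate numbers did not pair the samples: deviations of same-numbered samples correlated at -0.14 to 0.0067, and 0 of 4 GOF samples correlated best with their own number. With the replicate block, 7355 genes passed, against 7679, and 31 members. It was not run for the paralogue ratios, where 4 pairs allow no p below 0.125. Depth limits the low members most, Prdm1, Prdm9 and Setd4 among them.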

Other observations

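Of the 20 other 2-oxoglutarate oxygenases, of which 9 rose with a median of 0.013 (28.2% of all genes were higher), 5 that act on the methyl groups of DNA or RNA are given here. They were picked after their values were seen. Tet2, which oxidizes 5-methylcytosine, had 74.6, 71.7, 77.1 and 68.9 normalized reads in GOF samples 1 to 4, against 28.8, 29.2, 34.3 and 30.4 in WT samples 1 to 4 (log2 fold change 1.23 ± 0.060 SE, adjusted p = 1.87e-10, limma). Tet1 rose as well (0.88 ± 0.081 SE, adjusted p = 1.33e-06), and Tet3 by less (0.32 ± 0.053 SE, adjusted p = 0.000118). All GOF samples were above all WT samples for each of the 3 Tet genes. Alkbh5, an RNA demethylase, rose (0.64 ± 0.045 SE, adjusted p = 1.37e-08), while Fto, another, did not pass (-0.065, 95% interval -0.17 to 0.042). With mitochondrial genes left out, Fto passed as lower (-0.13, adjusted p = 0.0326, limma).

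Longer genes had slightly higher log2 fold changes, with Spearman's rho of 0.21 over the 49 members and 0.074 over 13554 genes. Genes are not independent replicates, and this is a description across genes of the same 8 samples.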
